A study of Homo sapiens with 6 samples.

Results

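The zinc finger genes of human chromosome 19 were examined in RNA from 92.1 cells, an established ocular melanoma line. The genes were the protein-coding genes of chromosome 19 in GENCODE release 29 whose symbol is ZNF followed by a number. GENCODE holds 249 such genes, 157 of them had transcripts in the deposited tables among 11387 genes in all, and the other 92 were not analysed here. The 3 shALKBH3 libraries come from 92.1 cells with ALKBH3 knocked down, and the 3 NC libraries from 92.1 cells labelled WT. All 6 were grown in the same medium, and the labels do not say whether NC cells carry a control hairpin or whether the knockdown line is 1 clone. The labels name no separate cultures for the 3 libraries of a group, and every p-value therefore rests on a spread between libraries that may be technical. The comparison asked how the levels of these genes differ after knockdown of ALKBH3, a demethylase that acts on alkylated DNA and on 1-methyladenosine in RNA.

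Zinc finger proteins of this class bind DNA through tandem C2H2 fingers, each folded around a zinc ion held by a pair of cysteines and a pair of histidines. Many also carry a KRAB box near the amino end, which recruits the corepressor TRIM28 and through it SETDB1, a histone H3 lysine 9 methyltransferase, and HP1 proteins. Chromosome 19 holds large tandem clusters of such genes, and many of their proteins bind and silence transposable elements.

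Both elements can be read in the coding DNA of the genes. The KRAB box and a finger are shown for the genes on which the results turn. The KRAB A box coding stretches are from the longest annotated coding sequence in GENCODE release 29, written 5′ to 3′. Capitals mark the 13 codons, of 40, at which at least 90% of the KRAB-bearing genes encode the same residue.
ZNF302: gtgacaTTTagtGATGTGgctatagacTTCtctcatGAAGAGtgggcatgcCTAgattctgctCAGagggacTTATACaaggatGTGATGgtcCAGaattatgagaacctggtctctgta
ZNF264: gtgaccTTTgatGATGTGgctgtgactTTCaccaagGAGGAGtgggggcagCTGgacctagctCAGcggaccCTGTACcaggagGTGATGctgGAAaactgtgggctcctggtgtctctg
ZNF224: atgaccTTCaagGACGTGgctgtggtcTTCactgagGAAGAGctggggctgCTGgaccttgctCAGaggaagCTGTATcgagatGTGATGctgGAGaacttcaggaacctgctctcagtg

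Over these 120 bases ZNF302 was 65.0% identical to ZNF264 and 65.0% identical to ZNF224, and ZNF264 was 73.3% identical to ZNF224. A finger is shown beside them from ZNF224 and from ZNF146, which encodes fingers and no KRAB box. Capitals mark the codons of the zinc-binding cysteines and histidines in the second finger of each.
ZNF224: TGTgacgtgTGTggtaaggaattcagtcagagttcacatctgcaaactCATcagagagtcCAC
ZNF146: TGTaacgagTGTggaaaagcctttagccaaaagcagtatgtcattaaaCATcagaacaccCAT

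Of the 157 genes, 131 encoded a stretch that scored above 0 bits against a KRAB A box matrix and 26 did not. The scores left a gap at the boundary, from -61.4 for the highest gene without the box to 42.5 for the lowest gene with it. The matrix was built from the same genes that it scored, so the width of the gap is no independent measure of the split. The median number of C2H2 finger matches was 13 in the 131 genes with the box and 8 in the 26 without. ZNF91, which encodes a repressor of SVA retrotransposons, had the most, 31. GC content of the listed transcripts had a median of 42.8% in genes with the box and 64.8% in genes without it. The rule that chose the genes used none of these features.

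ALKBH3 itself was at 3.29, 3.60 and 4.24 FPKM (a fragment density scaled to transcript length and library total) in replicates 1, 2 and 3 of shALKBH3, against 10.5, 10.6 and 9.19 FPKM in those of NC. Its log2 difference, always shALKBH3 minus NC and always on the log2(FPKM + 1) scale, was -1.24 (SE 0.118, limma adjusted p = 0.0079), with a limma adjusted p of 0.051 when NC replicate 1 was left out and 0.063 when the most abundant transcript stood for the gene. The listed FPKM summed to between 326408 and 333506 in shALKBH3 libraries and between 340522 and 360889 in NC libraries, with sequencing depth unknown. The melanocyte transcription factor gene MITF was listed at 10.3 to 14.0 FPKM in shALKBH3 and 3.29 to 9.53 FPKM in NC, while PMEL, MLANA, TYR, DCT, SOX10, PTPRC, PECAM1 and EPCAM were not analysed here. In bulk RNA, fewer cells of a type and less RNA per cell cannot be told apart.

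The zinc finger genes had low RNA levels. Their means over the 6 libraries ran from 0.354 to 76.1 FPKM with a median of 2.60, and 122 of 157 lay under 5 FPKM. FPKM is scaled to transcript length, so levels can be compared between genes. ZNF146, which encodes a protein made almost only of fingers, was highest, at 67.7, 81.4 and 77.7 FPKM in shALKBH3 and 74.4, 77.2 and 78.1 FPKM in NC, with overlapping groups. ZNF581 followed at 33.5 ± 18.6 FPKM in shALKBH3 and 27.1 ± 3.30 FPKM in NC, and ZNF580 at 17.7 ± 13.1 FPKM in shALKBH3 and 35.7 ± 15.7 FPKM in NC (SD, 3 libraries each). The levels of ZNF581 and ZNF580 overlapped each other's spread. ZNF226 was steady, at 22.4, 22.9 and 22.5 FPKM in shALKBH3 and 22.1, 20.5 and 21.7 FPKM in NC. The summed FPKM of the 157 genes was 703, 675 and 700 in shALKBH3 replicates 1, 2 and 3 and 659, 674 and 674 in NC replicates 1, 2 and 3. The lowest shALKBH3 sum and the highest NC sum were less than 1 FPKM apart.

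Testing needed a mean of at least 1 FPKM, which 128 of the 157 genes reached. None of the 128 passed the limma test at an adjusted p of 0.05, in either direction. Of all 10475 genes tested, 1.76% were called, 1.28% higher and 0.477% lower. With an unadjusted p below 0.05, 11 of the 128 were higher and 5 lower, against 8.98% and 8.15% of all genes tested. Every shALKBH3 library lay above every NC library in 17 of the 128 (13.3%) and below in 6 (4.69%), against 12.9% and 12% of all genes tested. The log2 difference was at least 1 in size in 4 of the 128 (3.12%), against 2.02% of all genes tested. In 98 of the 128 (76.6%) the 95% interval of the log2 difference lay inside -1 to 1, against 82.8% of all genes tested. So for these 98 a 2-fold change of FPKM + 1 lay outside the interval. At low levels the added 1 FPKM shrinks differences, so a larger fold change of FPKM itself can stay within -1 to 1. The median level was 3.43 FPKM in the 128 genes and 8.62 FPKM in all genes tested. The remaining 30 include genes whose libraries of a group differed several-fold among themselves. Tested as single transcripts, 0 of 174 transcripts passed, while limma called 0.472% of all transcripts tested. Of the 174, 8 had a higher and 8 a lower level with an unadjusted p below 0.05, against 4.99% and 4.75% of all transcripts tested.

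**Figure D1:**
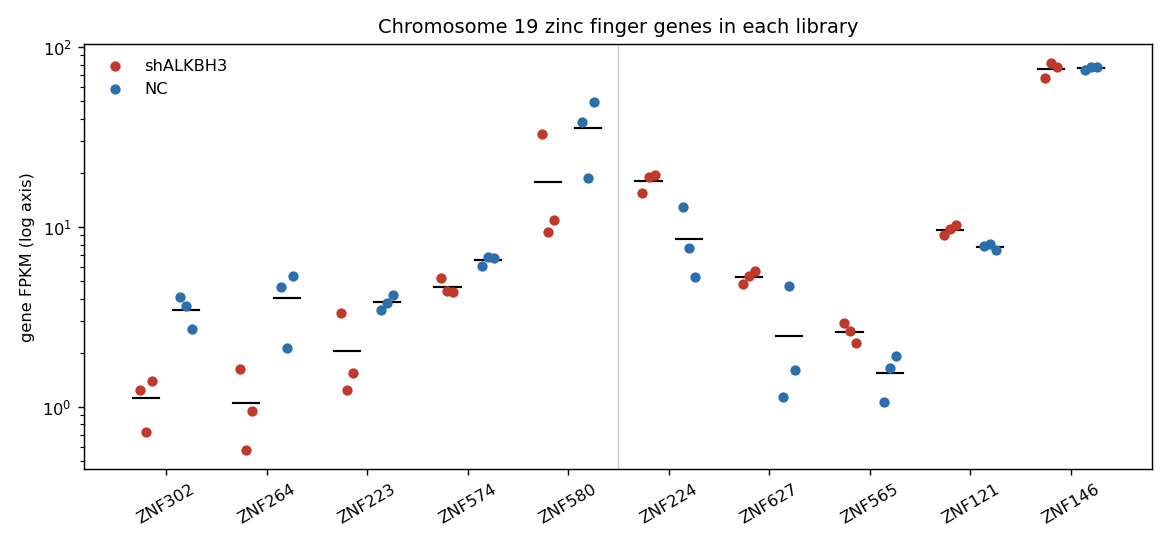
FPKM of 10 zinc finger genes in each library on a log axis, shALKBH3 in red and NC in blue, with a bar at the mean of 3 libraries. ZNF302, ZNF264, ZNF223 and ZNF574 lie lower in every shALKBH3 library, ZNF224, ZNF627, ZNF565 and ZNF121 higher, while ZNF580 and ZNF146 overlap. ZNF574, ZNF565 and ZNF121 were added after their values were seen.

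ZNF302 (ENSG00000089335), a KRAB gene, came nearest to the threshold. It was at 1.24, 0.724 and 1.39 FPKM in shALKBH3 replicates 1, 2 and 3 and at 4.09, 3.63 and 2.70 FPKM in NC replicates 1, 2 and 3. Every knockdown library was below every control. Its log2 difference was -1.08 (SE 0.189, limma adjusted p = 0.057). Array weights, which give less weight to more variable libraries, carried it past the threshold at -1.11 (limma adjusted p = 0.024). When single libraries were left out its limma adjusted p ran from 0.093 to 0.17. All 4 listed transcripts are coding, and none reached a mean of 1 FPKM alone. The short transcript of 854 nucleotides was listed at 0.460, 0.279 and 0.998 FPKM in replicates 1, 2 and 3 of shALKBH3 and at 0 in all NC libraries, against the direction of the sum. Of the 50-base words in its most abundant transcript, 17.3% also occur in transcripts of other genes, most of them in ZNF181, its neighbour.

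ZNF264 (ENSG00000083844) had the most negative difference. Its levels were 1.62, 0.577 and 0.949 FPKM in shALKBH3 and 4.67, 2.13 and 5.36 FPKM in NC. Every knockdown library was below every control, while NC replicate 2 lay far nearer to the knockdown libraries than the other controls did. The log2 difference was -1.27 (SE 0.323, limma adjusted p = 0.14), and -1.38 with array weights (limma adjusted p = 0.043). Over all genes array weights called 480, against 184 without them. When single libraries were left out the ZNF264 difference ran from -1.58 to -1.07, with limma adjusted p from 0.070 to 0.34. In NC most of the ZNF264 level came from a transcript of 12163 nucleotides, at a mean of 3.20 of 4.05 FPKM. In shALKBH3 that transcript had a mean of 0.474 of 1.05 FPKM.

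Further genes with low values in the knockdown included ZNF223, at 3.34, 1.24 and 1.55 FPKM in shALKBH3 and 3.46, 3.80 and 4.18 FPKM in NC. Its log2 difference was -0.72 (SE 0.258, limma adjusted p = 0.24), and 61.9% of its words are shared with another gene, so its value is uncertain. ZNF574, picked after its values were seen, had a small difference and little spread, at 5.19, 4.43 and 4.37 FPKM in shALKBH3 and 6.09, 6.83 and 6.77 FPKM in NC (log2 -0.42, SE 0.107, limma adjusted p = 0.14). It shares no 50-base word with another gene. ZNF580, a gene without the box, had 32.8, 9.40 and 11.0 FPKM in shALKBH3 and 38.4, 18.8 and 49.8 FPKM in NC. Those groups overlapped, and its log2 difference of -1.08 had an interval from -2.40 to 0.24. ZNF524, ZNF229, ZNF584 and ZNF836 completed the 8 most negative, with log2 differences from -0.73 to -0.48 and limma adjusted p-values from 0.30 to 0.51. Leaving out shALKBH3 replicate 3 moved ZNF524 to -0.31 and ZNF229 to -0.16, and leaving out NC replicate 3 moved ZNF584 to -0.24. Of ZNF836 words, 66.8% are shared.

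ZNF224 (ENSG00000267680), which encodes a KRAB repressor of the aldolase A gene and a partner of WT1, had the most positive difference. It was at 15.5, 19.1 and 19.4 FPKM in shALKBH3 and at 12.9, 7.65 and 5.28 FPKM in NC. All knockdown libraries were above all controls, with NC replicate 1 the nearest to them. The log2 difference was 1.05 (SE 0.288, limma adjusted p = 0.16), with an interval from 0.36 to 1.75. Without NC replicate 1 it was 1.36 (limma adjusted p = 0.078). All 4 listed transcripts had a higher mean in shALKBH3, and its main transcript averaged 13.4 FPKM in shALKBH3 and 6.26 FPKM in NC. ZNF224 shares 0.458% of its words with other genes.

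ZNF627 was at 4.80, 5.36 and 5.73 FPKM in shALKBH3 and at 1.13, 4.68 and 1.60 FPKM in NC, with NC replicate 2 close to the knockdown libraries. Its log2 difference was 0.99 (SE 0.362, limma adjusted p = 0.25). It was 1.42 with NC replicate 2 left out and passed (limma adjusted p = 0.031), as the only one of the 128 genes to do so when a single library was left out. ZNF667 stood out in shALKBH3 replicate 3, at 7.22 FPKM against 0.821 and 2.25 FPKM in shALKBH3 replicates 1 and 2 and 0.901 to 1.37 FPKM in NC. Its log2 difference was 0.79, and 0.20 without that library. ZNF529 was low in a single control, with 3.96 to 5.92 FPKM in shALKBH3 libraries, against 0.145, 4.81 and 5.18 FPKM in replicates 1, 2 and 3 of NC. Its log2 difference was 0.76, and -0.032 without NC replicate 1. ZNF841, ZNF559, ZNF773 and ZNF419 completed the 8 most positive, with log2 differences from 0.75 to 0.79 and limma adjusted p-values from 0.24 to 0.57. Their differences moved when single libraries were left out, to 0.49 for ZNF841 without shALKBH3 replicate 2 and 0.29 for ZNF559 without NC replicate 3. ZNF773 ran from 0.40 without shALKBH3 replicate 1 to 1.37 without shALKBH3 replicate 2, and ZNF419 was at 0.41 without NC replicate 2. Of their words, 37.2% are shared with other genes in ZNF419, 21.5% in ZNF773, 17.1% in ZNF841 and 15.1% in ZNF559. Most of the shared ZNF773 words occur in ZNF419, so the values of this pair may not be separate.

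Genes with a known role in silencing or signalling did not pass. ZNF274, which brings SETDB1 and TRIM28 to the 3′ ends of zinc finger genes, was at 15.2, 12.7 and 17.2 FPKM in shALKBH3 and 14.9, 14.8 and 9.99 FPKM in NC. The groups overlapped, and the log2 difference was 0.19, with an interval from -0.26 to 0.64, and 0.010 without NC replicate 3. ZNF350, a partner of BRCA1, was at 7.67 ± 2.01 FPKM in shALKBH3 and 6.32 ± 0.145 FPKM in NC (SD, 3 libraries each). ZNF473, a component of the histone pre-mRNA processing machinery, was at 3.41 ± 1.91 FPKM in shALKBH3 and 2.28 ± 1.43 FPKM in NC. ZNF675, an inhibitor of TRAF6 signalling, was at 1.77 ± 0.182 FPKM in shALKBH3 and 1.79 ± 0.237 FPKM in NC. ZNF420, a negative regulator of p53, was at 3.27 ± 0.570 FPKM in shALKBH3 and 3.05 ± 0.311 FPKM in NC. The repressor gene ZNF382 was at 1.60 ± 0.180 FPKM in shALKBH3 and 2.15 ± 0.532 FPKM in NC. For these 6, adjusted p in limma ran from 0.44 to 0.97. ZNF91 was under the level tested, at 0.835, 0 and 0.0123 FPKM in shALKBH3 and 0.608, 0.546 and 0.473 FPKM in NC. ZNF93, ZNF331, ZNF568 and ZNF808 were not analysed here.

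The 29 genes under the level tested had mean differences of at most 0.66 in size on the log2(FPKM + 1) scale. At these levels the added 1 FPKM shrinks differences, so this limit does not show that FPKM itself was steady. ZNF114 averaged 1.03 FPKM in shALKBH3 and 0.129 FPKM in NC, and ZNF235 0.603 and 0.105 FPKM, both with overlapping groups. In the other direction ZNF333 averaged 0.419 FPKM in shALKBH3 and 1.02 FPKM in NC. Among the 29 genes ZNF333 was lower in every shALKBH3 library than in any NC library, and ZNF443, ZNF699 and ZNF724 were higher. Of all 912 listed genes under that level, 12.2% were higher and 7.35% lower in this way. Those 4 genes, ZNF114 and ZNF235 were picked after their values were seen. ZNF443 and ZNF724 share 39.7% and 55.6% of their words with other genes.

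Transcripts of a gene were also compared with each other. Of the 40 zinc finger genes with at least 2 tested transcripts, 26 (65%) had transcripts with differences of opposite sign, against 68.8% of 4881 such genes in all. The main ZNF146 transcript was at 65.4, 79.1 and 76.0 FPKM in shALKBH3 and 72.8, 74.8 and 8.08 FPKM in NC, while the other ZNF146 transcript was at 2.29, 2.33 and 1.77 FPKM in shALKBH3 and 1.60, 2.35 and 70.1 FPKM in NC. So in NC replicate 3 nearly all of the gene's level was listed under the other transcript, and the sum did not move. In ZNF567, picked after its values were seen, a transcript of 2825 nucleotides was at 1.94, 5.85 and 6.94 FPKM in shALKBH3 and 0, 0.539 and 0.0186 FPKM in NC (log2 2.22, limma adjusted p = 0.19). The ZNF567 transcript of 2691 nucleotides was at 4.60, 2.93 and 0.682 FPKM in shALKBH3 and 6.67, 6.43 and 3.94 FPKM in NC. The ZNF567 sum differed by 0.30 on the log2 scale (limma adjusted p = 0.36). How fragments were divided among transcripts was set by the authors' processing.

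Taken as a group, the zinc finger genes lay slightly higher and the rest of the chromosome slightly lower. The median log2 difference was 0.077 over the 128 zinc finger genes, -0.15 over 574 other protein-coding genes of chromosome 19 and -0.0096 over all 10475 genes. Positive differences made up 59.4%, 28.0% and 48.7% of these genes. Genes with a KRAB box had a median of 0.10 (71 of 106 positive), and genes without it -0.11 (5 of 22 positive). The difference between these groups was not tested. Among the 574 other genes of the chromosome 4 (0.697%) rose and 1 (0.174%) fell in limma, against 1.28% and 0.477% of all genes tested. With an unadjusted p below 0.05, 18 (3.14%) were higher and 91 (15.9%) lower, against 8.98% and 8.15% of all genes tested. Every shALKBH3 library lay above every NC library in 25 (4.36%) and below in 111 (19.3%), against 12.9% and 12% of all genes tested. BST2, which tethers budding virions, had a log2 rise of 1.86 (limma adjusted p = 0.0060), and PLEKHA4, the vesicle fusion adaptor gene NAPA and PSG4 rose by 1.00, 0.79 and 0.69 (0.023, 0.0066 and 0.044). TMEM147 fell by 0.48 on the log2 scale (limma adjusted p = 0.028). Of these other genes, 1 passed when shALKBH3 replicate 3 was left out, 4 when NC replicate 2 was left out and 2 when any other single library was left out.

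Base composition and length differed between these groups and moved with the difference. Median GC content was 43.8% in the zinc finger genes tested and 60.7% in the other genes of the chromosome, and median transcript length 3006 and 2030 nucleotides. Across the 128 genes the log2 difference had a Spearman rho of -0.36 with GC content and 0.17 with length, and across all 10475 genes -0.31 and 0.35. These are descriptions across genes measured in the same 6 libraries. When each library's trend on length and GC content was removed, the median log2 difference became 0.017 in the zinc finger genes, -0.0061 in the other genes of the chromosome and -0.019 in all genes. Corrected medians were 0.045 with a KRAB box and -0.0095 without it. No zinc finger gene passed limma after the correction, where ZNF302 had the smallest adjusted p, 0.051 (log2 -1.13). Of the 574 other genes of the chromosome, 5 were then called higher and 0 lower, against 167 and 66 of all 10475 genes.

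**Figure D2:**
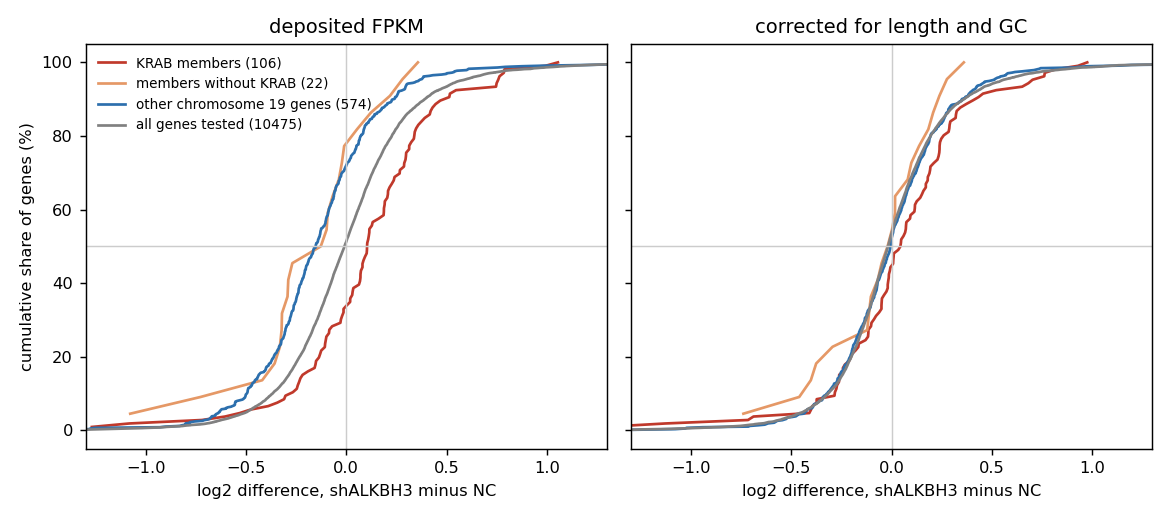
Cumulative share of genes by log2 difference, shALKBH3 minus NC, for zinc finger genes with and without a KRAB box, other protein-coding genes of chromosome 19 and all genes tested. The medians of 0.10 with the box, -0.11 without it and -0.15 in the rest of the chromosome on the left become 0.045, -0.0095 and -0.0061 after removal of the trend on length and GC content on the right.

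**Figure D3:**
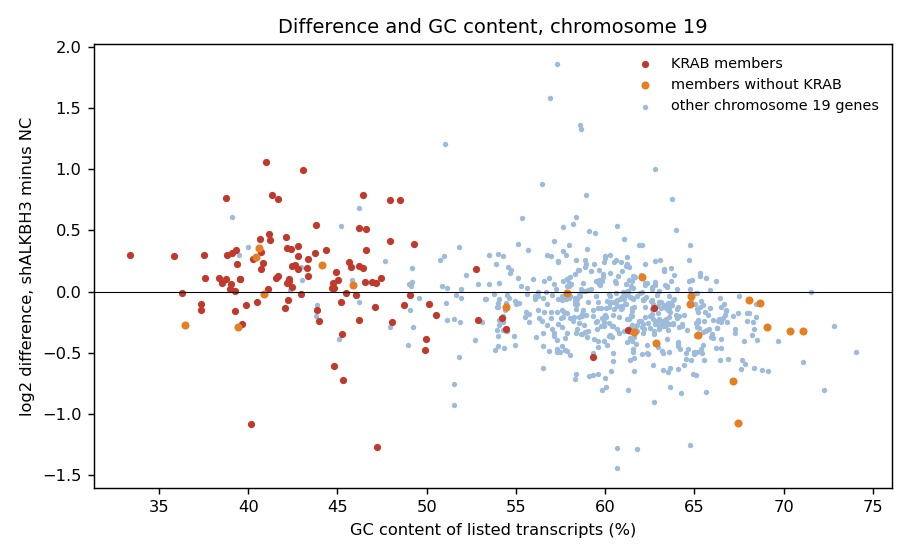
Log2 difference, shALKBH3 minus NC, against GC content of the listed transcripts, 1 point per tested protein-coding gene of chromosome 19. Zinc finger genes with a KRAB box lie mostly at low GC content, and those without it mostly among the other genes of the chromosome.

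The knockdown libraries differed among themselves. Relative to the NC mean, the median of KRAB genes was 0.055, 0.17 and 0.19 in replicates 1, 2 and 3 of shALKBH3 and 0.020, 0.059 and -0.046 in those of NC. The median of the other genes of the chromosome was -0.0070, -0.27 and -0.17 in replicates 1, 2 and 3 of shALKBH3 and -0.068, -0.041 and 0.12 in those of NC. So shALKBH3 replicate 1 lay close to the controls in both. With the trend removed, KRAB genes were at 0.045, 0.054 and 0.12 in shALKBH3 and -0.010, 0.026 and -0.0048 in NC. Leaving out single libraries gave medians from 0.048 to 0.092 for the zinc finger genes and from -0.22 to -0.081 for the other genes, the last without shALKBH3 replicate 2.

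**Figure D4:**
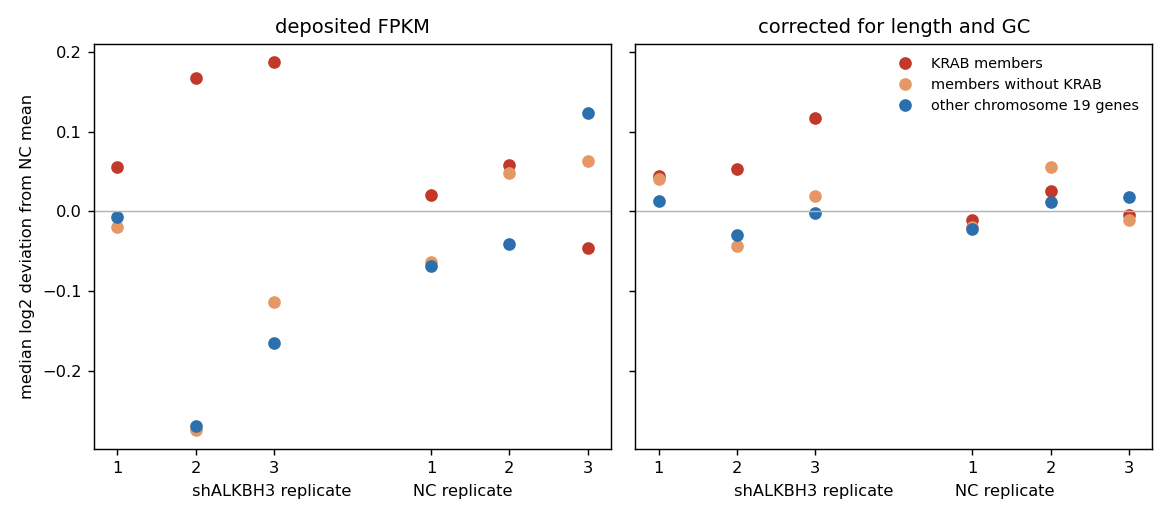
Median log2 deviation from the NC mean in each library for zinc finger genes with and without a KRAB box and for other genes of chromosome 19. On the left shALKBH3 replicates 2 and 3 stand apart from replicate 1, and on the right, with the trend on length and GC content removed, the points lie between -0.043 and 0.12.

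Along the chromosome the genes fall into runs, counted here as zinc finger genes with at most 5 other protein-coding genes between neighbours in GENCODE release 29. Neighbouring genes did not share a direction throughout. The run from ZNF283 to ZNF180 holds 20 annotated genes, all listed and all with a KRAB box, and 12 of the 17 tested had a positive difference. It contains ZNF224 at a log2 difference of 1.05 and, a place away on the other side of ZNF284, ZNF223 at -0.72. The run from ZNF653 to ZNF791 had positive differences in all 5 genes tested of 26 annotated, with a median of 0.42, or 0.32 after correction. The run from ZNF649 to ZNF761, with 39 annotated genes, had 13 of 16 positive, with a median of 0.24, or 0.15 after correction. From ZNF565 to ZNF573, with 26 annotated genes, 12 of 15 were positive, with a median of 0.19, or 0.11 after correction. From ZNF101 to ZNF254, with 37 annotated genes, only 5 were tested and 2 were positive, with a median of -0.014, or -0.051 after correction. The run from ZNF302 to ZNF792 had 4 of 5 negative, with a median of -0.24, or -0.28 after correction. All 7 genes of the run from ZNF628 to ZNF581 lack the box and are GC-rich. There 5 of 6 tested were negative, with a median of -0.21, or 0.0052 after correction. The last run, from ZNF787 to ZNF446, had 23 of 37 positive and a median of 0.081.

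**Figure D5:**
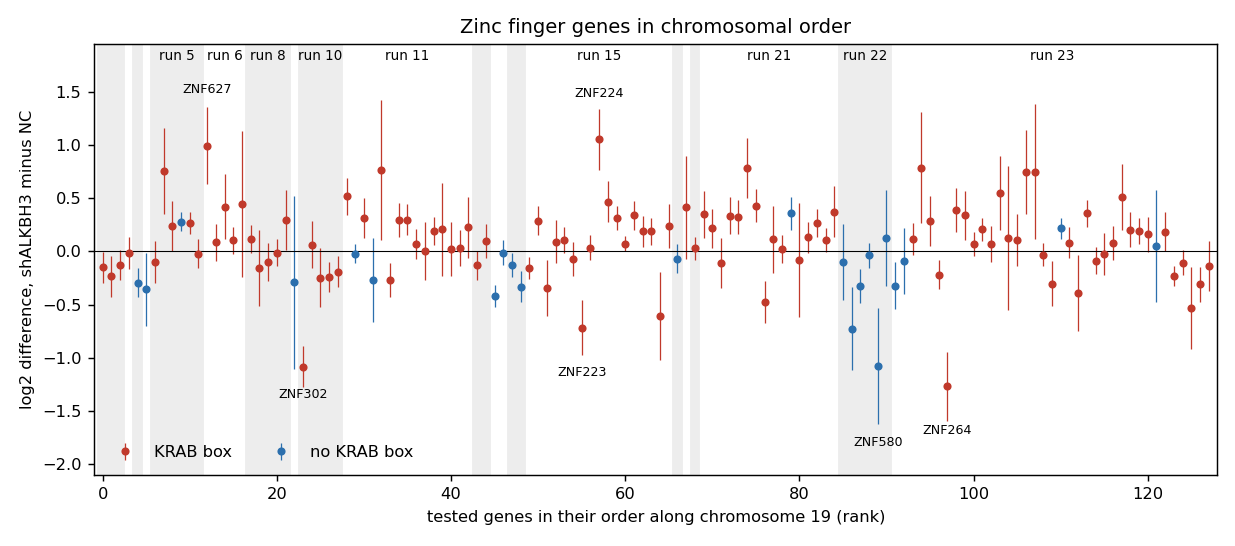
Log2 difference, shALKBH3 minus NC, with its standard error for the 128 tested zinc finger genes in their order along chromosome 19, red with a KRAB box and blue without. Shaded and white bands are runs of neighbouring genes, and ZNF223 and ZNF224 stand on opposite sides of 0 within the same run.

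Corepressor genes of KRAB proteins and further chromatin silencing genes, together called corepressor genes here, were measured as a chosen list of 24, all tested. None passed limma in either direction, and their median log2 difference was 0.018. With an unadjusted p below 0.05, 0 were higher and 1 was lower, beside 8.98% and 8.15% of all genes tested. That gene was TRIM28, itself on chromosome 19. TRIM28 was at 46.9, 37.9 and 43.2 FPKM in shALKBH3 and 50.7, 54.6 and 63.3 FPKM in NC. All knockdown libraries lay below all controls, with a log2 difference of -0.39 (SE 0.119, limma adjusted p = 0.20). Of the 24 genes, 2 (8.33%) were lower in this way, TRIM28 and CBX3. The 2 higher ones (8.33%) were CBX1 and ATF7IP2. Over all genes tested the shares were 12% lower and 12.9% higher. TRIM28 transcripts are 63.4% GC, and the difference was -0.24 after the correction (limma adjusted p = 0.13). SETDB1 was at 6.79 ± 0.741 FPKM in shALKBH3 and 6.03 ± 1.33 FPKM in NC (SD, 3 libraries each). The 3 HP1 genes, added outside the naming rule, had adjusted p-values from 0.55 to 0.97 in limma. CBX1 was at 133 ± 5.07 FPKM in shALKBH3 and 126 ± 3.64 FPKM in NC, and CBX3 at 89.6 ± 1.27 FPKM in shALKBH3 and 93.6 ± 1.39 FPKM in NC. CBX5 was at 18.2 ± 0.612 FPKM in shALKBH3 and 18.3 ± 4.06 FPKM in NC. Their log2 differences were 0.080 for CBX1, -0.062 for CBX3 and 0.017 for CBX5. ATF7IP2, a relative of the SETDB1 partner ATF7IP, was at 1.18, 1.22 and 2.39 FPKM in shALKBH3 and 0.00665, 1.12 and 0.787 FPKM in NC (limma adjusted p = 0.34). EHMT1, another histone H3 lysine 9 methyltransferase, had a log2 difference of -0.20 (limma adjusted p = 0.41).

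Zinc finger genes of the same naming pattern on other chromosomes had a median log2 difference of 0.056 over 167 tested. In limma 0 were called higher and 0 lower, and 9 were higher and 5 lower with an unadjusted p below 0.05, where all genes tested gave 8.98% and 8.15%. Their median GC content was 46.5%. The difference between the chromosome 19 genes and these was not tested.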

How the data were processed

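The authors deposited FPKM per transcript for 6 libraries, per the file headers. The submitters' processing notes name hg19, HTSeq 0.6.0 and DESeq2 without their role. Which tool and annotation gave the FPKM is not given in the sources used here. Of 28900 listed transcripts 28796 (99.6%) matched GENCODE release 29 by identifier without version or lift suffix, and 104 were left out. GENCODE is on GRCh38, so no coordinates are given. FPKM were summed per gene, taken as log2(FPKM + 1) and filtered at a mean of 1 FPKM. limma 3.58.1 in R 4.3.3 (variance trend, two-sided, Benjamini-Hochberg over 10475 genes, threshold 0.05) compared shALKBH3 with NC and was tested on simulated data. Depth is unknown, so no counting interval is given.

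KRAB boxes were scored with a weight matrix of 40 residues built from the genes' own translated coding sequences, and fingers as C-x2-C-x12-H-x3-5-H. Shared sequence was counted as 50-base words. The correction for length and GC content used natural splines with 4 degrees of freedom each, per library. Genes were named by rule: ALKBH3, any member past the threshold, the 8 highest and 8 lowest differences, the 4 highest levels, 13 genes of known role, TRIM28, SETDB1 and the 3 corepressor genes with the smallest p. Genes named outside it are marked in the text, beside the 5 other chromosome 19 genes that passed. The members, lists and rules were chosen with earlier results of these data known. Same-numbered libraries are not said to be paired. Alternatives changed the pseudocount, filter, scaling, variance model, weights, gene summary, block and libraries used. Tables used Python 3.11.15, pandas 2.3.3, numpy 2.4.6 and Biopython 1.88, and plots matplotlib 3.10.9.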

Additional observations from a re-analysis of the deposited data

How the results depend on the processing

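The count of 0 zinc finger genes past the threshold was also found with other pseudocounts, filters, scalings and variance models, for single transcripts and for genes with little shared sequence (both chosen after seeing the data). It was 2 with array weights (ZNF264 and ZNF302, lower) and 0 to 1 when single libraries were left out. The median log2 difference of the zinc finger genes was 0.15 after rescaling to equal listed sums, which moved the median of all genes to 0.071, and 0.017 with length and GC content corrected. It ran from 0.048 to 0.092 when single libraries were left out. The median of the other chromosome 19 genes was -0.0061 after that correction and -0.22 to -0.081 when single libraries were left out. Genes called among them numbered 8 under quantile normalization, 16 with array weights, 1 with the replicate block and 1 to 4 when single libraries were left out, against 5. Over all genes 184 were called, and 105 with the most abundant transcript, 480 with array weights, 20 with the replicate block and 48 to 109 when single libraries were left out. The ALKBH3 log2 difference stayed at -1.24 with the most abundant transcript (limma adjusted p = 0.063) and with the replicate block (limma adjusted p = 0.098), and ran from -1.32 to -1.17 without single libraries, where its limma adjusted p was 0.051 without NC replicate 1.

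Same-numbered libraries correlated at -0.088, 0.075 and -0.012 in their deviations from the group means, so the numbers were not taken to pair them. The 0 calls among the corepressor genes held in every alternative run. Differences near 0 changed sign in places. ZNF146 was at 0.071 when rescaled, 0.0061 under quantile normalization, 1.00 with its most abundant transcript and 0.021 with array weights, and -0.077 to 0.054 without single libraries. With the most abundant transcript ZNF581 was at -0.11, ZNF226 at -0.17, ZNF274 at -0.28, ZNF473 at -0.20 and EHMT1 at 0.33. ZNF675 was at 0.047 when rescaled, and ZNF420 at -0.026 after correction and -0.048 with array weights. Without single libraries ZNF529 ran from -0.032 to 1.18, ZNF581 from -0.26 to 0.65, ZNF675 from -0.066 to 0.055 and ZNF420 from -0.029 to 0.16. The cause of these reversals was not tested. Unknown depth limits what the low levels of these genes can show.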
